A study of Oncorhynchus mykiss with 6 samples.

Results

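The genes described here are the listed liver genes of rainbow trout (Oncorhynchus mykiss) whose deposited annotation assigns a transcription factor family other than the C2H2 zinc fingers and bZIP factors. Genes with symbols of the circadian clock and of the sterol regulatory element-binding proteins were left out. The rule used the family annotation and the symbol, and no expression value, and it took 182 of the 5045 listed genes, in 43 annotated families. The largest families were HMG-box and bHLH with 19 genes each, Fork_head and Homeobox with 14 each, and ZBTB with 12. A further 10 families had 2 genes and 13 families had 1.

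Liver RNA was sequenced from a heat group at 24 °C for 8 h and a control group at 18 °C, with 3 libraries in each group. The sample labels speak of trout liver placed or treated at these temperatures and give no duration for the control group. The design text speaks of the liver of trout at 18 and 24 °C, and its wording is followed here. The question named in the design text was how liver mRNA profiles differ between these temperatures. Neither the age nor the strain of the fish is given, nor whether each library is a separate fish. The p-values therefore set the difference between groups against the spread between libraries of a group, which may be technical only. Each listed gene had been selected by the authors as changed: in the authors' deposited table the largest adjusted p is 0.049875 and the smallest log2 fold change in absolute size is 1.00019. Factors outside the list were not analysed here, and that a listed factor changed is not in itself a finding. What can be read is the direction, the size and the level of each change.

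Transcription factors are grouped by the fold with which they hold DNA. HMG-box proteins bind in the minor groove and bend DNA, and include abundant chromatin proteins (HMGB) as well as sequence-specific regulators (SOX). Nuclear receptors switch genes in response to lipids, bile acids and steroids, and with the HNF4 and FOXA factors they set much of the gene programme of the hepatocyte, while REL and IRF factors carry inflammatory and interferon signals. The annotation follows protein domains, so it also takes in proteins with other known roles. By their symbols, 40 of the 182 genes encode a protein other than a classical DNA-binding factor, such as ceramide synthases in the Homeobox class and DNA polymerase subunits in the NF-Y classes.

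Levels are given in FPKM, a read density scaled by transcript length and library size, as deposited, and means are given ± SD over 3 libraries per group. Fold changes, their standard errors (SE) and adjusted p-values are from limma-voom on the read counts, with Benjamini-Hochberg adjustment over all 4766 listed genes with at least 10 counts in 3 libraries. Of the 182 genes, 172 could be tested. In liver tissue as a whole, fewer cells of a type and less RNA per cell cannot be told apart.

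Of the 172 tested factors, 95 were higher and 77 were lower in heat. The background was that 100% of the 4766 tested genes passed the threshold, 58.1% of them higher and 41.9% lower in heat, so the share of factors that rose, 55.23%, lay near that of all tested genes. The median log2 fold change was 1.09 over the factors and 1.13 over all tested genes, and 170 factors changed at least 2-fold, where 98.8% of all tested genes did. The 3 heat and the 3 control libraries did not overlap in FPKM for 180 of the 182 genes, against 99.4% of all listed and 99.5% of all tested genes. The genes whose groups overlapped were Mxd4 (copy 2) and thra1. Separate groups were thus the rule in this list, and separation stated below for a gene does not set that gene apart. The 2 excluded classes were distributed otherwise, with 155 higher and 18 lower among 173 tested C2H2 zinc finger genes and 45 higher and 10 lower among 55 tested bZIP genes. When the libraries were scaled by median-of-ratios over the listed genes, which moved the median log2 fold change of all tested genes to 0.24, 47 factors were higher, 77 were lower and 48 were not called. No factor changed sign under that scaling or under TMM, where 86 were higher and 77 lower.

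The factors were expressed at low levels for the most part, and 66 of the 182, or 36.3%, averaged under 1 FPKM in both groups, as did 28.2% of all listed genes. The median coefficient of variation between libraries was 14.6% in heat and 16.6% in control for the tested factors, and the median SE of a log2 fold change was 0.24. By family, the heat libraries were higher for all tested genes of the RHD, IRF and ETS classes and lower for all of the RXR-like class. Most E2F and HMG genes were lower. The Fork_head, bHLH, Homeobox and THR-like classes held changes in both directions.

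**Figure D1:**
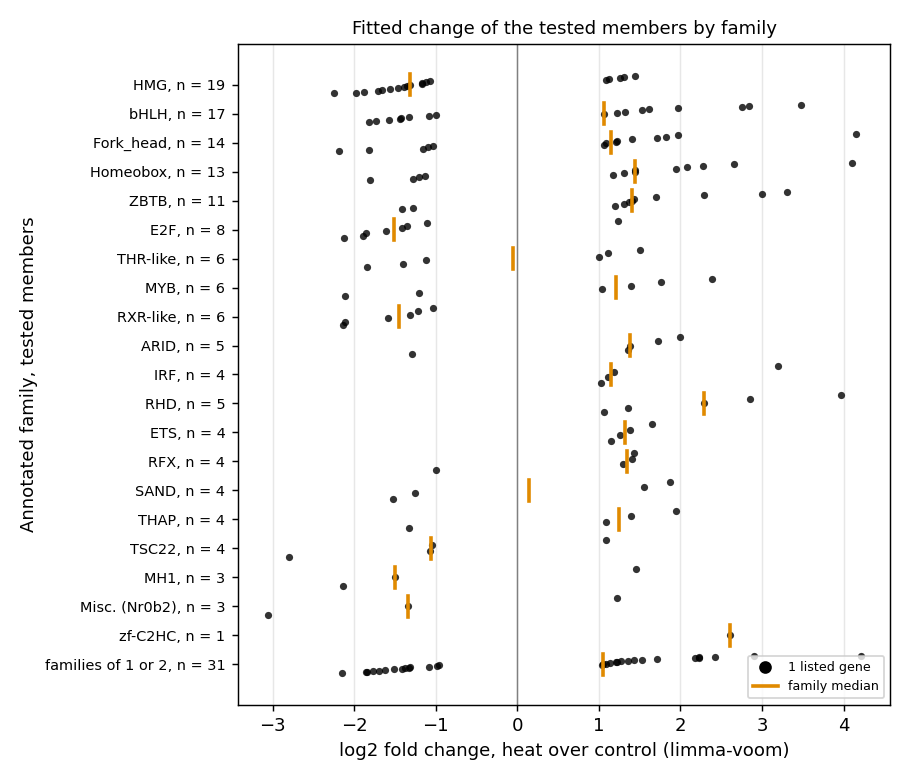
Fitted log2 fold change, heat over control, of each tested gene (x axis), with 1 row per annotated family and its number of tested genes (y axis). Black points are genes and orange ticks are family medians. The HMG median is -1.32 and the RHD median 2.28, and no point lies near 0 because only changed genes are listed.

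HMG-box genes were mostly lower in heat. Of 19 listed and tested genes, 5 were higher and 14 were lower, so 26.3% rose, against 58.1% of all tested genes, and the median log2 fold change was -1.32. Outside this class 90 factors were higher and 63 lower, with a median of 1.11. The difference between classes was not tested, since genes are not replicates, and 4 symbols of the class stand for 2 genes each. With the proteins named for another role (pms1, CHD3 and wdhd1) left out, 3 were higher and 13 lower. Median-of-ratios scaling left 1 higher and 14 lower, and TMM left 4 higher and 14 lower.

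All 4 HMGB-type genes fell, and 3 of them were the most abundant of the class. HMGB proteins are abundant chromatin proteins that bend DNA without sequence preference. HMGB1P1 (copy 1) had 25.5, 24.9 and 24.9 FPKM in heat, against 63.8, 53.5 and 53.0 FPKM in control. Its second copy had 6.67, 8.73 and 6.04 FPKM in heat, against 21.2, 16.9 and 20.6 FPKM in control. Neither copy had a heat library within reach of a control library. The symbol is that of a human pseudogene of HMGB1, so the annotation gives the class and not the identity of the trout gene. The hmgb3a gene averaged 12.4 ± 0.679 FPKM in heat and 32.4 ± 3.20 FPKM in control, a log2 fold change of -1.39 ± 0.09 (SE, adjusted p = 1.45e-20, limma-voom). HMGB3 was scarcer, at 0.562 ± 0.0492 FPKM in heat and 2.12 ± 0.203 FPKM in control, and was 3.68-fold lower in heat.

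The 3 SOX genes, which encode sequence-specific developmental regulators, were lower as well. SOX6 (copy 1) had 0.448, 0.458 and 0.385 FPKM in heat, against 1.57, 1.65 and 1.92 FPKM in control, a 3.95-fold lower level (adjusted p = 9.44e-15, limma-voom). SOX6 (copy 2) was 3.26-fold lower and sox4a 2.56-fold lower. For all 3 genes the control libraries lay above every heat library, where 99.5% of all tested genes had separate groups. The largest fall of the class was that of wdhd1, 4.75-fold, a gene that encodes a replication fork protein with an HMG box and not a transcription factor. It had 0.370, 0.335 and 0.236 FPKM in heat, against 1.25, 1.55 and 1.75 FPKM in control. HBP1, a repressor of cell cycle genes, was lower in both copies. Copy 1 averaged 1.07 ± 0.273 FPKM in heat and 2.40 ± 0.281 FPKM in control, and copy 2 was 3.17-fold lower but 2.02-fold lower without heat replicate 1.

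TOX genes split by type. Both copies of TOX4 rose, and TOX and Tox2 fell. TOX4 (copy 1) had 2.29, 1.98 and 2.48 FPKM in heat, against 0.785, 0.768 and 0.783 FPKM in control, and its second copy was 2.40-fold higher. TOX, known as a regulator of T cell development in mammals, was 2.25-fold lower in heat, and Tox2 was 2.96-fold lower on a total of 36 counts in heat and 78 in control. The other 3 genes that rose were UBTF, which activates ribosomal RNA genes, the mismatch repair gene pms1 and the chromatin remodeller CHD3. UBTF averaged 3.25 ± 0.261 FPKM in heat and 1.52 ± 0.220 FPKM in control. CHD3 was 2.18-fold higher, with an adjusted p of 0.000756 that became 0.0553 under TMM scaling (limma-voom). With median-of-ratios scaling only 1 of the 5 HMG genes that rose was still called higher. HMG20B, a subunit of a corepressor complex, was 2.49-fold lower and hmgxb4a 2.11-fold lower. The hmgxb4a gene was the factor closest to the authors' own limit on p, with an adjusted p of 0.049119 in the authors' deposited table.

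**Figure D2:**
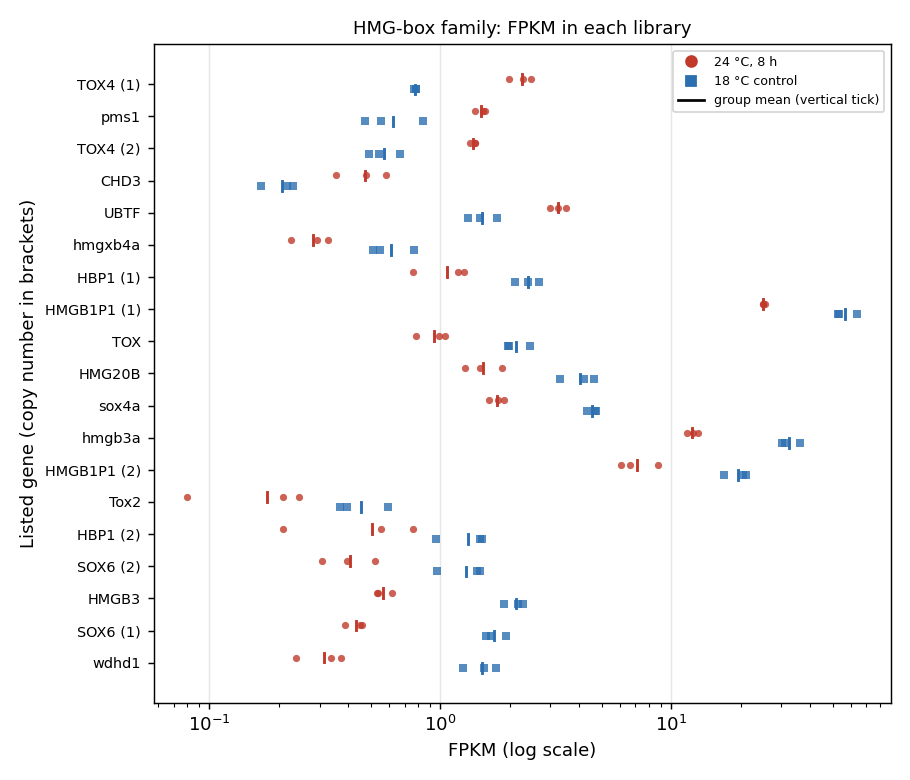
FPKM on a log axis (x) in each library for the 19 HMG-class genes (y), with heat libraries as red circles above control libraries as blue squares and vertical ticks at the group means. The 5 genes at the top were higher in heat and the other 14 lower, with HMGB1P1 (copy 1) the most abundant at 25.1 FPKM in heat and 56.8 FPKM in control.

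REL homology (RHD), IRF and ETS genes were higher in heat without exception among those tested, 5 of 5, 4 of 4 and 4 of 4. Of all tested genes 58.1% were higher, and the difference from them was not tested. With median-of-ratios scaling 4 of the RHD genes and 2 of the ETS genes were still called higher. The RHD genes encode the NF-kappaB subunits. Relb, a subunit of the non-canonical pathway, had 44.6, 42.6 and 43.4 FPKM in heat for copy 1, against 2.64, 2.79 and 2.92 FPKM in control. This was a 15.6-fold difference (log2 fold change 3.97 ± 0.11 SE, adjusted p = 3.91e-35, limma-voom), and copy 1 had the highest heat level of all 182 genes. Relb (copy 2) had 17.3, 18.0 and 17.5 FPKM in heat, against 2.35, 2.41 and 2.49 FPKM in control. The libraries of a group lay close together and the groups far apart for both copies. Nfkb2, which encodes the partner of RelB, averaged 17.2 ± 0.225 FPKM in heat and 3.54 ± 0.408 FPKM in control for copy 1, a 4.87-fold rise. Its second copy, named after its value was seen, was 2.08-fold higher. RELA, the main activating subunit of the canonical pathway, was 2.56-fold higher.

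IRF genes encode regulators of interferon and immune genes. The irf2 gene had 4.76, 4.26 and 4.53 FPKM in heat, against 2.22, 1.53 and 2.28 FPKM in control. The irf2 gene was 2.28-fold, Irf5 2.15-fold and Irf8 2.04-fold higher. The groups of each gene did not overlap, as in 99.5% of all tested genes. With median-of-ratios scaling the adjusted p-values of irf2, Irf5 and Irf8 were 0.135, 0.395 and 0.475 (limma-voom), so these 3 calls were lost. IRF4, which had no counts in any control library and 17 counts over the heat libraries, was at least 4.43-fold higher, taking 3 counts as the floor for the control group; it was too low to test and was named after its value was seen. Irf5 and Irf8 are myeloid and B cell factors in mammals. Of 9 myeloid marker names, 3 stood for listed genes, and the summed level of these 6 genes ranged from 8.90 to 11.4 FPKM in heat and from 1.07 to 1.31 FPKM in control, and of the 5 that could be tested 4, copies of Cd163 and mmp9, were higher and csf1r1 was lower. Of 8 lymphocyte marker names, IL7R and ZAP70 were listed, with a summed level of 2.82 to 2.96 FPKM in heat and 1.01 to 1.84 FPKM in control. IL7R was higher and made up most of this sum in heat. ZAP70, too low to test, went the other way, with 17 counts in heat and 48 in control. The part of such cells in the IRF values was not tested.

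Elf3, an epithelial ETS factor, had 14.9, 15.1 and 14.9 FPKM in heat, against 5.55, 3.93 and 4.96 FPKM in control, and was 3.13-fold higher. Both copies of ETV6, a repressor, rose, 2.61-fold and 2.40-fold. In all 3 genes every heat library lay above every control library, and 99.5% of all tested genes had separate groups. ETS2, named after its value was seen, was scarcer, at 0.941 ± 0.212 FPKM in heat and 0.445 ± 0.257 FPKM in control. Of 4 names on the biliary marker list only krt18, an epithelial keratin gene, was listed, so bile duct content was not gauged. The krt18 gene ranged from 172.4 to 178.9 FPKM in heat and from 83.4 to 91.0 FPKM in control. The part of epithelial cells in the Elf3 values was not tested.

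**Figure D3:**
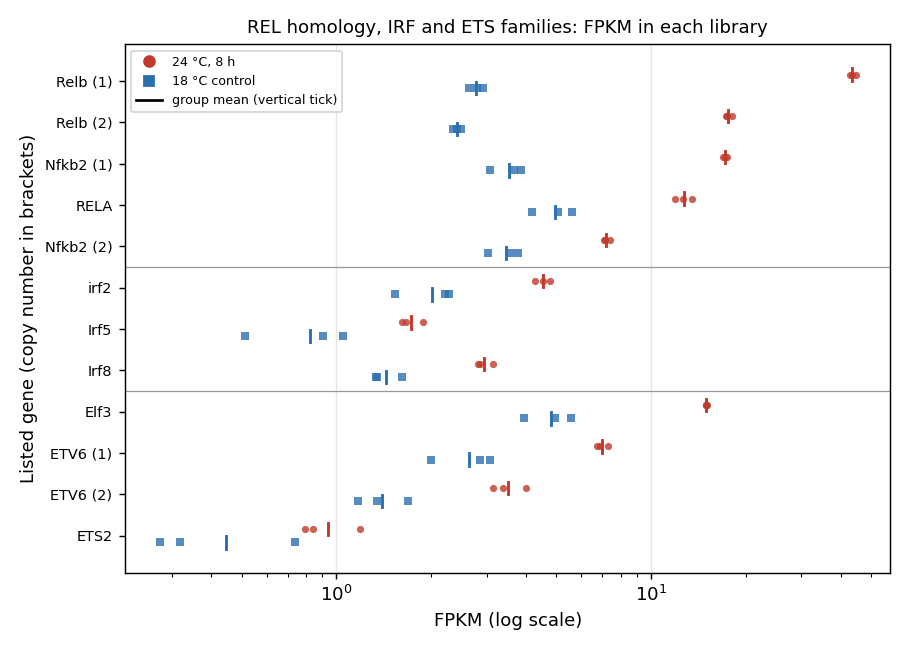
FPKM on a log axis (x) in each library for RHD genes, 3 IRF genes and ETS genes (y, in 3 blocks from top to bottom; IRF4, at 0 in control, is not drawn), with heat as red circles above control as blue squares and ticks at the group means. Every heat library lies above every control library, most widely for Relb copy 1 at 43.5 FPKM in heat and 2.78 FPKM in control. The groups were separate in 99.5% of all tested genes.

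Nuclear receptor genes were more often lower. Over the THR-like, RXR-like and ESR-like classes and the Nr0b2 genes, 17 could be tested, of which 5 were higher and 12 lower in heat, and median-of-ratios scaling left 3 higher and 12 lower. Receptor genes with symbols starting with nr1d or ror were left out with the clock genes and are not counted here. Of all tested genes 58.1% were higher and 41.9% lower, and the difference from them was not tested. The RXR-like class held no gene that rose. Its most abundant gene was hnf4a, a central regulator of hepatocyte identity, with 3.43, 4.67 and 2.71 FPKM in heat, against 16.1, 13.6 and 16.1 FPKM in control. That was a 4.32-fold lower level (log2 fold change -2.11 ± 0.13 SE, adjusted p = 3.62e-20, limma-voom). The related hnf4b gene, named after its value was seen, averaged 4.60 ± 0.522 FPKM in heat and 9.40 ± 0.799 FPKM in control. For both HNF4 genes the lowest control library lay above the highest heat library, and 99.5% of all tested genes had separate groups. The hnf4a gene is also a hepatocyte marker, and of the other 6 listed genes under 4 hepatocyte marker names, copies of HP and fga and APOB were higher and rbp4 was lower.

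The retinoid X receptors are the shared partners of many receptors. The rxrga gene (copy 1) had 1.40, 1.04 and 1.10 FPKM in heat, against 5.38, 5.27 and 5.36 FPKM in control, a 4.41-fold lower level, and its second copy was 3.01-fold lower. The orphan receptor gene nr2f1a was 2.32-fold lower. Among the THR-like genes, Nr1h4, the bile acid receptor FXR, had 10.7, 8.62 and 9.46 FPKM in heat, against 21.2, 22.1 and 19.8 FPKM in control. Its groups were well apart, and the fitted fall was 2.17-fold.

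PPAR genes went in opposite directions by subtype. PPAR-alpha drives fatty acid oxidation in the liver, and PPAR-beta/delta is a widely expressed relative. PPARA had 1.82, 1.78 and 1.84 FPKM in heat, against 6.47, 7.37 and 5.86 FPKM in control, and pparab had 1.96, 1.59 and 1.73 FPKM in heat, against 4.47, 4.48 and 4.09 FPKM in control. The pparb gene had 3.99, 3.96 and 3.88 FPKM in heat, against 1.01, 1.89 and 1.44 FPKM in control. The falls were 3.59-fold and 2.64-fold and the rise 2.83-fold. Each gene had groups that did not overlap, as in 99.5% of all tested genes. PPARD, named with vdrb after their values were seen, was 2.0-fold higher, and vdrb, a vitamin D receptor gene, 2.16-fold higher. Of the 3 THR-like genes that rose, 2 were still called higher with TMM and 1 with median-of-ratios scaling. In the ESR-like class esr2a, an estrogen receptor gene, was 3.59-fold lower at 1.18 ± 0.245 FPKM in heat and 4.13 ± 0.176 FPKM in control. The androgen receptor gene ar-alpha was 2.89-fold higher at 2.61 ± 0.437 FPKM in heat and 0.972 ± 0.346 FPKM in control.

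Nr0b2, also called SHP, is a receptor without a DNA-binding domain that in mammals is induced by FXR and represses bile acid synthesis. It is annotated here under a miscellaneous class. Nr0b2 (copy 2) had 31.4, 27.9 and 28.0 FPKM in heat, against 11.1, 14.0 and 12.7 FPKM in control. Nr0b2 (copy 1) had 15.4, 10.4 and 16.7 FPKM in heat, against 36.5, 32.4 and 37.3 FPKM in control. The copies therefore exchanged rank: copy 2 was the higher in every heat library and copy 1 in every control library. A gene under the symbol nr0b2a was 8.34-fold lower on 9 counts in heat and 65 in control.

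**Figure D4:**
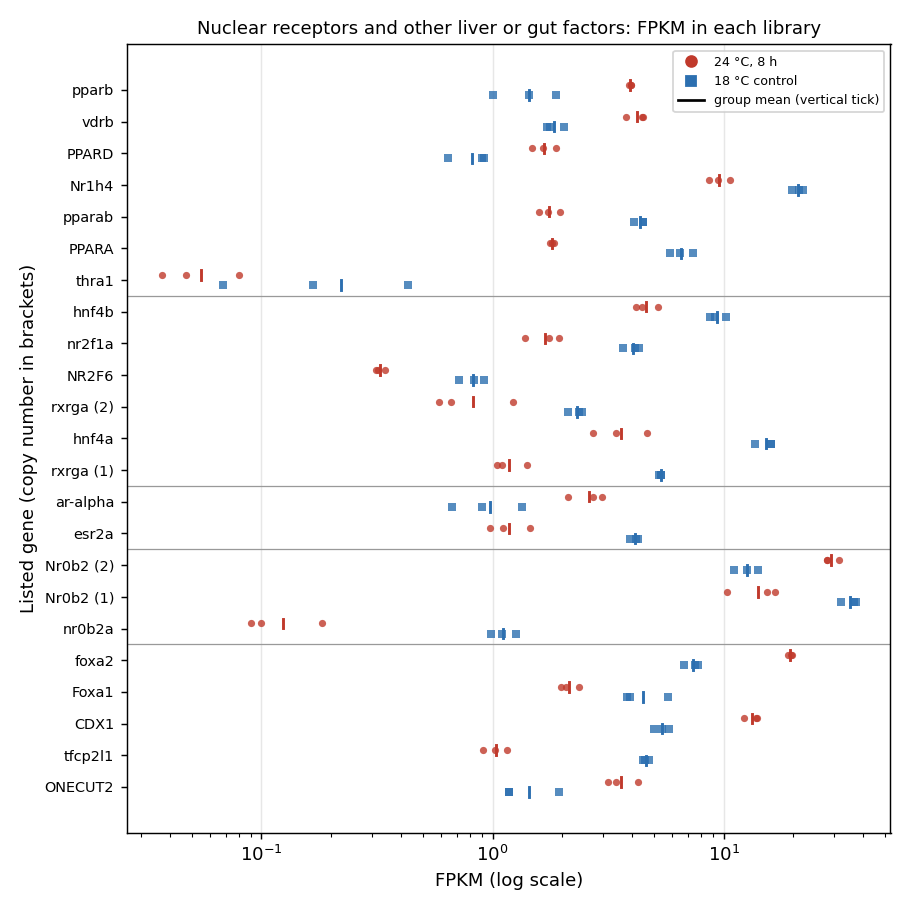
FPKM on a log axis (x) in each library for the nuclear receptor genes in 4 blocks (THR-like, RXR-like, ESR-like, Nr0b2) and 5 other liver or gut factors in the lowest block (y), with heat as red circles above control as blue squares and ticks at the group means. The hnf4a points fall to a mean of 3.60 FPKM in heat, against 15.3 FPKM in control, while foxa2 and pparb lie higher in heat; thra1 was not tested.

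Fork_head genes were higher in 9 of 14 cases, or 64.3%, near the 58.1% of all tested genes. Within the FOXK and FOXP subfamilies all went 1 way, and 4 of the FOXK genes share the symbol FOXK2. All 5 FOXK genes, which encode repressors linked in mammals to nutrient and autophagy control, rose, and all 3 FOXP genes fell. The most abundant FOXK2 gene (copy 1) had 15.5, 16.2 and 16.1 FPKM in heat, against 3.99, 4.46 and 4.98 FPKM in control. FOXK2 (copy 2) had 11.1, 12.8 and 12.4 FPKM in heat, against 3.50, 3.65 and 3.81 FPKM in control. Copy 3 was 3.93-fold higher. The groups did not overlap in any FOXK gene, where 99.5% of all tested genes had separate groups. Of the FOXP genes, foxp1b (copy 2) fell most, to 0.242 ± 0.0561 FPKM in heat, against 1.10 ± 0.0516 FPKM in control. Another FOXP gene named after its value was seen, foxp3-1, related to the regulatory T cell factor of mammals, was 2.22-fold lower, and the part of lymphocytes, whose marker values are given with the IRF genes, was not tested for it. With median-of-ratios scaling 5 Fork_head genes were higher and 5 lower.

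FOXA factors open chromatin at liver genes, and their 2 listed genes differed in direction. The foxa2 gene, the most abundant of the Fork_head class, had 19.9, 19.6 and 19.0 FPKM in heat, against 7.75, 6.76 and 7.53 FPKM in control, a 2.65-fold rise. Foxa1 had 2.38, 2.07 and 1.98 FPKM in heat, against 3.95, 5.73 and 3.83 FPKM in control and was named after its value was seen. In each gene the groups were separate, as in 99.5% of all tested genes. The liver factor ONECUT2, of the CUT class, was 2.40-fold higher at 3.61 ± 0.567 FPKM in heat and 1.43 ± 0.444 FPKM in control. ONECUT2 was not called with median-of-ratios scaling. The largest fitted rise of the Fork_head class was 17.8-fold for FOXN3, named after its value was seen. It rested on 4 counts in control, all of them in control replicate 1, so no fold is given without that library.

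In the bHLH class 9 genes rose and 8 fell, so 52.9% rose, near the 58.1% of all tested genes. BHLHA15, known as MIST1, a factor of secretory cells in mammals, had 8.54, 9.24 and 8.37 FPKM in heat, against 0.871, 0.820 and 0.645 FPKM in control. The difference was 11.1-fold (log2 fold change 3.47 ± 0.23 SE, adjusted p = 2.12e-19, limma-voom), and every heat library lay far above every control library. With median-of-ratios scaling 5 genes of the class were higher and 8 lower. MYC and MYCL genes, which encode growth-promoting factors that pair with MAX, rose in 3 of 4 cases. The myclb gene had 0.980, 1.26 and 0.972 FPKM in heat, against 0.223, 0.197 and 0.077 FPKM in control. Of the genes for competing MAX partners, mxi1 was 3.92-fold and Mnt 2.49-fold higher, while Mxd4 was 2.51-fold lower in copy 1; Mnt and Mxd4 are named here after their values were seen. Mxd4 (copy 2), whose groups overlapped, was 3.53-fold lower, or 1.82-fold without heat replicate 1, where its adjusted p was 0.0624 (limma-voom). The most abundant Mxd4 gene, copy 1, had 2.21, 2.75 and 2.52 FPKM in heat, against 6.21, 6.20 and 6.18 FPKM in control. The mesenchymal factor gene tcf21 was 2.97-fold lower. Of 12 endothelium and stroma marker names only 1, col1a1b, was listed, so stromal content was not gauged. The col1a1b gene ranged from 8.82 to 9.40 FPKM in heat and from 21.9 to 24.3 FPKM in control. The part of stromal cells in the tcf21 value was not tested. Both copies of ID1, an inhibitor of bHLH factors and a target of BMP signals, were lower, 2.0-fold and 2.71-fold, and were named after their values were seen.

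E2F genes, which control entry into DNA replication, were lower in 7 of 8 cases, most of them at low level. Of all tested genes 41.9% were lower, and the difference from them was not tested. TFDP1 (copy 1), the dimer partner, had 0.849, 1.09 and 0.858 FPKM in heat, against 2.21, 2.08 and 2.77 FPKM in control. E2F1, named after its value was seen, was 4.37-fold lower on 17 counts in heat and 62 in control. Both copies of the repressor e2f8, also named after their values were seen, were lower, 2.68-fold and 2.57-fold. The exception was e2f4 (copy 1), the most abundant gene of the class, with 4.04, 3.50 and 3.35 FPKM in heat, against 1.32, 1.57 and 1.76 FPKM in control. With median-of-ratios scaling it was not called, with an adjusted p of 0.0776 (limma-voom), and the 7 others stayed lower.

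In the Homeobox class 9 genes rose and 4 fell, so 69.2% rose, against 58.1% of all tested genes. With median-of-ratios scaling 6 were higher and 4 lower. The homeobox gene homeza had 7.47, 7.20 and 6.46 FPKM in heat, against 1.73, 1.72 and 1.93 FPKM in control, a 3.85-fold rise. CDX1, an intestinal factor in mammals, had 13.8, 13.9 and 12.2 FPKM in heat, against 5.79, 5.42 and 4.98 FPKM in control. Heat and control libraries were separate in both genes, as in 99.5% of all tested genes. Of the other gut and pancreas markers, fabp2 was lower, with a mean of 6.77 FPKM in heat and 21.2 FPKM in control. The vil1 and ins genes were higher in heat. The vil1 gene averaged 0.717 FPKM in heat and 0.331 FPKM in control. The ins genes averaged 1.98 and 1.20 FPKM in heat and 0.0403 and 0.0413 FPKM in control, and the second was too low to test. The part of gut or pancreas cells in the CDX1 value was not tested. CERS5, a ceramide synthase gene with a homeobox-like domain, was 6.31-fold higher at 2.24 ± 0.266 FPKM in heat and 0.361 ± 0.127 FPKM in control. The rise of eng2b, named after its value was seen, was 17.3-fold and rested on 9 counts in control. It was 8.89-fold without control replicate 3, and without control replicate 2 only 1 control count remained, so no fold is given.

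ZBTB genes encode repressors with a BTB domain, and 9 of 11 rose, of which 4 were still called with median-of-ratios scaling. Of all tested genes 58.1% were higher, and the difference from them was not tested. ZBTB21 (copy 2) had 1.62, 1.73 and 1.86 FPKM in heat, against 0.163, 0.164 and 0.174 FPKM in control, a 9.93-fold difference, and its first copy was 4.90-fold higher. The zbtb8a gene was 7.99-fold higher on 161 counts in heat and 15 in control. The paralogs bcl6b and BCL6 went in opposite directions: bcl6b averaged 3.95 ± 0.306 FPKM in heat and 1.44 ± 0.214 FPKM in control, and BCL6, a repressor of germinal centre and metabolic genes in mammals, averaged 1.88 ± 0.136 FPKM in heat and 5.02 ± 0.471 FPKM in control. Their adjusted p-values were 9.94e-14 and 5.07e-12 (limma-voom), where 100% of the tested genes, all selected as changed, passed the threshold.

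The ARID class of chromatin factors rose in 4 of 5 cases, where 58.1% of all tested genes did. Of these genes 3 averaged under 1 FPKM in both groups. With median-of-ratios scaling 2 were higher, 1 was lower and 2 were not called. The arid4a gene was 2.56-fold higher and jarid2a, a cofactor of the Polycomb complex, 2.45-fold lower. Among the MYB-class genes the co-chaperone gene DNAJC1 (copy 1) was the most abundant, with 14.6, 14.7 and 16.4 FPKM in heat, against 2.83, 3.43 and 2.52 FPKM in control. The corepressor gene rcor1 was 2.30-fold lower. RFX1 rose in both copies, 2.65-fold and 2.71-fold, in a class with 3 genes higher and 1 lower. The SAND class held 2 genes higher and 2 lower. Of these, deaf1 was 3.66-fold and Gmeb2, a glucocorticoid-response modulator, 2.92-fold higher.

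The TSC22 class held a large fall. Tsc22d3, also called GILZ and induced by glucocorticoids in mammals, had 1.77, 2.11 and 1.76 FPKM in heat, against 13.3, 13.1 and 12.7 FPKM in control. It was 6.94-fold lower (log2 fold change -2.80 ± 0.14 SE, adjusted p = 3.37e-24, limma-voom), and no library lay near the other group. TSC22D1 was 2.11-fold lower in the count fit. Its FPKM averaged 1.33 ± 0.173 in heat and 3.85 ± 0.727 in control, a wider log2 difference of -1.54 against -1.07 from the counts. Over the 172 tested genes the count-based and FPKM-based log2 differences lay apart by 0.0309 in the median and by over 0.3 in 5 genes (TSC22D1, TULP1, FOXN3, eng2b and Foxm1). MYCBP, a MYC-binding protein gene, was 2.06-fold lower.

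Of the MH1 class, Smad6, an inhibitor of BMP signals, was 2.84-fold lower at 0.385 ± 0.132 FPKM in heat and 1.04 ± 0.165 FPKM in control. The related inhibitor smad7 was 4.40-fold lower on 19 counts in heat and 61 in control, and smad9, a signal-transducing SMAD, was 2.75-fold higher; both were named after seeing their values. Of the THAP class THAP5 was 3.86-fold higher, and arl14ep was 2.51-fold lower.

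Among the smaller classes the largest fitted rise of the 172 tested genes was that of DDIT3, the stress factor CHOP, in the C_EBP class. It had 2.21, 3.64 and 2.54 FPKM in heat, against 0.037, 0.186 and 0.327 FPKM in control. The fold was 18.5 with all libraries, 10.5 without control replicate 1 and 28.4 without control replicate 3, and the control libraries held 30 counts in all. The truncated description of this gene begins with the words SKI fami and does not name CHOP, so its identity rests on the symbol. CEBPG, a dimer partner in the same class, was 2.06-fold higher. The annotation names the C_EBP class apart from bZIP, and membership here followed that name and not the protein domain. With median-of-ratios scaling 1 gene of this class was higher and 1 was not called. The relatives nfxl1 and NFX1 rose alike, with nfxl1 at 4.04, 5.33 and 5.29 FPKM in heat and 0.968, 0.991 and 1.07 FPKM in control. NFX1 had 4.22, 5.41 and 4.73 FPKM in heat and 0.889, 1.12 and 1.11 FPKM in control. Both genes were separated between groups by more than the range within a group. Both PC4-class coactivator genes fell, with tcp4 at 9.25, 8.30 and 6.18 FPKM in heat and 27.2, 26.7 and 23.7 FPKM in control, and Sub1 2.61-fold lower.

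The tfcp2l1 gene, an epithelial factor of the CP2 class, fell to 1.03 ± 0.121 FPKM in heat, against 4.60 ± 0.147 FPKM in control. Both copies of tbx2b, a T-box developmental repressor gene, were lower, by 1.97-fold and 2.84-fold. TEAD1, the DNA-binding partner of YAP, was 2.33-fold higher at 3.0 ± 0.107 FPKM in heat and 1.16 ± 0.179 FPKM in control. TEAD1 was not called with median-of-ratios scaling. The TBP-binding repressor gene dr1 was 4.69-fold higher and the polymerase subunit gene pole3 was 3.62-fold lower. MBD3, a subunit of a chromatin remodelling complex, was the factor closest to the authors' limit on size, with a log2 fold change of -1.00173 in the authors' deposited table, and was 1.95-fold lower in the count fit. TULP1, a tubby-like gene, was 7.51-fold higher, or 3.59-fold without control replicate 3. ELOF1, a transcription elongation factor, was 2.48-fold lower.

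Of the 10 genes too low to test, RUNX2, ST18, irx5 and the second copy of L3MBTL3 were named after their values were seen. RUNX2 had no counts in heat and 13 in control and was at least 5.54-fold lower against the same floor. ST18 had 21 counts in heat and none in control and was at least 5.48-fold higher. The irx5 gene had 3 counts in heat and 22 in control, a 9.38-fold lower level with an exact 95% interval of 2.82 to 48.9. L3MBTL3 (copy 2) had 30 counts in heat and 1 in control, a ratio of 23.5 with an interval of 3.90 to 957.4. Such intervals cover counting error only.

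The trout genome carries many duplicated genes, and the listed factors showed where copies went apart. A symbol was shared by 2 or more factors in 24 cases, and in 20 of these all copies went in 1 direction. The other 4, or 16.7%, held both directions, against 17.9% of the 676 shared symbols over all listed genes. They were Nr0b2, e2f4, TFAP4 and Pole4. Pole4, a subunit of DNA polymerase epsilon annotated under NF-YC, had 11.7, 10.1 and 10.8 FPKM in heat, against 3.81, 3.22 and 3.25 FPKM in control, for copy 1. Its second copy had 1.14, 1.58 and 2.13 FPKM in heat, against 4.75, 3.15 and 4.57 FPKM in control. The copies were at like levels in control and stood apart in heat. The other E2F4 genes (copies 2 and 3) were 3.06-fold and 3.70-fold lower, where the first was 2.36-fold higher. TFAP4, a bHLH factor and a MYC target in mammals, averaged 1.51 ± 0.0420 FPKM in heat and 0.734 ± 0.169 FPKM in control for copy 1, and 0.163 ± 0.0365 FPKM in heat and 0.453 ± 0.0835 FPKM in control for copy 2.

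By the ortholog identifier in the table, 4 of 11 groups of factors, or 36.4%, held both directions, against 24.2% of 351 groups over all listed genes. These included a pair of MYC genes and a pair of ceramide synthase 2 genes, named after their values were seen. The mycb gene had 2.72, 2.80 and 2.52 FPKM in heat, against 0.965, 1.18 and 0.678 FPKM in control, while myc had 0.249, 0.072 and 0.333 FPKM in heat, against 0.480, 0.776 and 0.577 FPKM in control. The cers2a gene was 4.85-fold higher and CERS2 2.31-fold lower. Where copies are nearly identical the authors' counting could have divided reads among them, which was not tested, so values of single copies are uncertain.

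**Figure D5:**
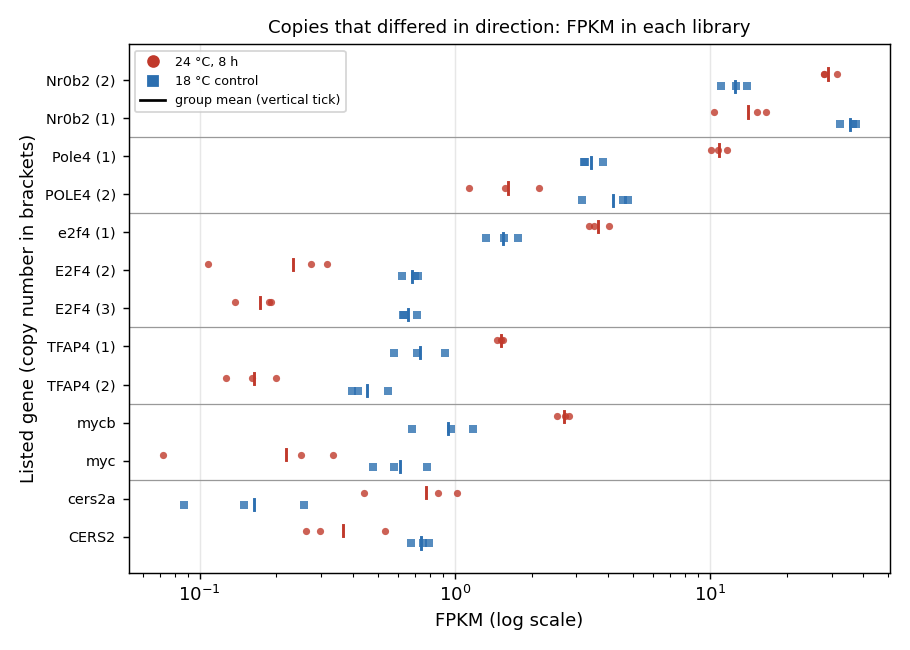
FPKM on a log axis (x) in each library for copies of 1 symbol or ortholog that differed in direction (y, in 6 blocks), with heat as red circles above control as blue squares and ticks at the group means. In the Nr0b2 block copy 2 averages 29.1 FPKM in heat and 12.6 FPKM in control, and copy 1 averages 14.1 FPKM in heat and 35.4 FPKM in control.

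A list of names of co-regulators and signal inhibitors was set beside these factors. The list was broad and also took in SOCS genes and KMT2A, whose proteins need not bind these factors. Of 49 names of co-regulators and inhibitors, 24 matched 33 listed genes outside the 182, of which 32 could be tested, and 23 were higher and 9 lower in heat, with a median log2 fold change of 1.30. Of all tested genes 58.1% were higher, with a median of 1.13, and the difference from them was not tested. Median-of-ratios scaling left 14 higher and 9 lower, and with 1 gene per symbol 15 were higher and 8 lower. The genes for inhibitors of NF-kappaB rose beside the REL genes. NFKBIE had 9.28, 9.51 and 9.89 FPKM in heat, against 1.46, 1.02 and 0.769 FPKM in control, and the most abundant of 3 NFKBIA genes averaged 91.6 ± 2.12 FPKM in heat and 38.5 ± 1.08 FPKM in control. Both groups of 3 libraries were separate in each gene, as in 99.5% of all tested genes. TRIB2, a pseudokinase gene, was 11.0-fold and 6.66-fold higher in its copies. Of the coactivators of nuclear receptors and other factors, the 3 Pprc1 genes rose, while cited2 was 4.74-fold and the receptor corepressor Nrip1 3.14-fold lower. These genes were picked from the list after their values were seen.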

How the data were processed

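Per the file headers, the authors deposited read counts and FPKM values for every library. The authors' own log2 fold change, p-value and its adjusted form stand beside them. The submitters' processing notes name Bowtie2 2.2.8 and StringTie; genome build, annotation and the authors' test are not given in the sources used. The text has fixed fields of 8 characters, so symbols and descriptions can be cut (3 of the 182 symbols fill 8 characters), and 822 wrapped lines were left out. In 6 rows the family column holds overflowing annotation text, and these were treated as having no family; 16 rows were excluded by symbol. Of the 182 genes 178 carry a symbol, and 73 of these stand in the RefSeq gene table (USDA_OmykA_1.1). No sequence is printed, since none was used here.

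Counts were tested with limma-voom (limma 3.58.1, R 4.3.3), without a replicate block and with library totals taken from count divided by FPKM over the 451 genes above 200 counts and 5 FPKM. With control replicate 1 set to 1, totals were 1.56, 1.17 and 1.14 in heat replicates 1 to 3 and 0.999 and 1.02 in control replicates 2 and 3. Counts over the listed genes ranged from 2663575 to 3586127 in heat and from 1409460 to 1421082 in control; the full depth is unknown. The test was also run on simulated counts in which most genes were unchanged. That check does not cover a list of genes selected as changed. Alternatives were other scalings and filters, log2 FPKM with a pseudocount, other memberships, each library left out, and the replicate block. Own code computed TMM and median-of-ratios. Counts were made in Python 3.11.15 with pandas 2.3.3, numpy 2.4.6 and scipy 1.17.1, and figures with matplotlib 3.10.9.

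Genes were named by a rule: every HMG gene; in other families of 5 or more the 4 largest changes with separate groups and at least 1 FPKM, and the most abundant gene; in smaller families tested genes of at least 1 FPKM; and copies in opposite directions. Exceptions are marked, and 1 gene that the rule takes is not reported here. The genes, lists and tests were chosen with earlier results of these data known. Entries with look-alike symbols were removed from the co-regulator list by identity. Of the marker lists, no erythrocyte name was listed, and the 2 muscle genes went in opposite directions.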

Additional observations from a re-analysis of the deposited data

How the results depend on the processing

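No factor reversed direction under any alternative run. When libraries were scaled by median-of-ratios, 47 factors were higher, 1 HMG gene was higher, 104 factors changed at least 2-fold and 14 co-regulator genes were higher; 18 of the 102 genes named by the rule were no longer called, and under TMM 2 were not (CHD3 and a zf-BED gene without a symbol). That scaling assumes that most listed genes do not change, and the median log2 fold change of all tested genes was 0.24 with it and 0.62 with TMM. A filter of 50 counts in 3 libraries tested 116 factors, of which 46 were lower and 112 changed at least 2-fold. With limma on log2(FPKM + 1), 46 changed at least 2-fold, since the pseudocount shrinks changes at low level. With 1 gene per symbol 15 co-regulator genes were higher, and with the proteins named for another role left out 3 HMG genes were higher.

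Leaving out each library in turn gave 95 higher in every case, 76 to 77 lower, 5 HMG genes higher and 14 lower, 160 to 166 changed at least 2-fold, and 23 co-regulator genes higher and 8 to 9 lower. The replicate block gave 95 higher and 77 lower and changed no call among the factors. Same-numbered libraries correlated at 0.0267, 0.0116 and -0.00931, so the numbers were not taken as pairing the samples. Low counts limit the precision of the 66 factors under 1 FPKM, and the list itself holds only genes the authors had selected.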
